A study of Mus musculus with 5 samples.

Results

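The mouse genes Cxcl1, Cxcl2, Cxcl3, Cxcl5, Ppbp, Pf4 and Cxcl15 encode CXC chemokines and lie in 1 cluster on chromosome 5, and Cxcr2 on chromosome 1 encodes the receptor for the neutrophil-attracting ones. These 8 genes, of 17657 in the deposited table, were followed in cultured epidermal stem cells, the proliferating keratinocytes that renew the epidermis. They were chosen by symbol on their KO and WT counts and TPM values, which were already known, so the difference between the groups is given for them as a description without a test. Skin of C57BL/6 males, labelled 8 weeks of age, was the source of all cells, which were kept in KGM2 medium. The WT group (WT1, WT2 and WT3) was wild type, and the KO group (KO1 and KO2) carried an Angptl4 knockout, whose allele is not described in the sources used here. Values of single libraries follow that order throughout. The labels do not state whether separate mice or cultures lie behind the libraries within a group, so p-values cover the scatter among these libraries alone, and that scatter may be technical.

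Chemokines of this class carry a glutamate-leucine-arginine motif ahead of their CXC cysteines and draw neutrophils out of the blood through CXCR2, a G protein-coupled receptor. Keratinocytes make CXCL1, CXCL2, CXCL3 and CXCL5 when interleukin 1, tumour necrosis factor or interleukin 17 reaches them, through NF-kappaB and its cofactor I-kappaB-zeta (Nfkbiz), and the transcripts are kept short-lived by AU-rich elements. Ppbp and Pf4 encode platelet granule chemokines, of which PF4 lacks the motif, and Cxcl15 encodes lungkine, a chemokine of airway epithelium.

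The stretches just before the start sites of Cxcl1, Cxcl2 and Cxcl3 are shown because these 3 genes had the largest WT levels of the cluster and were all low in KO, and because they share an NF-kappaB-type sequence. Each is the 140 bases before the start on the plus strand of chromosome 5 (RefSeq, GRCm38.p6), written 5′ to 3′, with GGGAATTTCCC, the longest string (11 bases) that the 3 genes' promoter windows share, in capitals.
Cxcl1: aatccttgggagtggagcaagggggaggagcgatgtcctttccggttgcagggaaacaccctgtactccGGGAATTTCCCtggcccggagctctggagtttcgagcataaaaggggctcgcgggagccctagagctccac
Cxcl2: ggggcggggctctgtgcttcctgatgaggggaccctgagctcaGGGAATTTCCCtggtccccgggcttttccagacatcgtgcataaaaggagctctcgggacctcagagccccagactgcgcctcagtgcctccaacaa
Cxcl3: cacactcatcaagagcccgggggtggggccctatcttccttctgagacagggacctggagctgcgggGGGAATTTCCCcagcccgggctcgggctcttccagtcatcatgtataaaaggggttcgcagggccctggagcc
They span chr5:90891105-90891244, chr5:90903759-90903898 and chr5:90785961-90786100. For comparison, the same stretch of Ppbp (chr5:90768378-90768517), a platelet gene of the same cluster, held no such match. Ppbp was itself lower in KO, with 27 to 47 counts in the WT libraries and 0 in both KO libraries.
Ppbp: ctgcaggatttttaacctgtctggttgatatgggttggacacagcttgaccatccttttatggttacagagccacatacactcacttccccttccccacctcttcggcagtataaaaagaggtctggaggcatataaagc

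The capitals begin 71 bases before the start in Cxcl1, 97 in Cxcl2 and 73 in Cxcl3. RefSeq's promoter table held 7 of the 8 genes and Cxcl5 was not among them. Over 250 bases before the start, searched on both strands, GGGAATTTCCC was found in 14 of 32851 windows (0.0426%), 3 of which belong to these genes. The windows of Ppbp, Pf4, Cxcl15 and Cxcr2 did not hold it. The string was found by comparing the sequences themselves, so its presence in all 3 is not a test. A looser NF-kappaB pattern of 3 G, any 5 bases and 2 C, which the string contains on both strands, was found in 45.8% of windows, among them those of Cxcl1, Cxcl2, Cxcl3 and Cxcr2. The AP-1 pattern TGANTCA was found in 6.75% of windows and only in that of Ppbp among the 7. The C/EBP pattern TTGCNNAA was found in 9.56% and only in that of Pf4. TATAAA, searched on each gene's own strand, was found in 7.59% of windows, including Cxcl3, Ppbp and Cxcl15. Of the other 11 genes whose window held GGGAATTTCCC 3 were expressed highly enough to be tested. Hpn, Kremen2 and Zfp84 had log2 differences, KO minus WT, of -0.19, 0.70 and 0.16 and did not pass (edgeR adjusted p = 0.563, 0.0974 and 0.507).

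Transcripts of the cluster also differ in AU-rich pentamers. The reference transcript of Cxcl2 (GENCODE M21, 1109 bases) held 11 copies of ATTTA, or 9.92 per kilobase, a density met or passed by 6 of 21877 genes, itself included. Cxcl1 held 7 copies (7.35 per kilobase), Cxcl3 5 (4.92) and Cxcl5 5 (3.17), against a median of 0.74 over all genes. Ppbp and Cxcr2, at 0.92 and 0.90 per kilobase, lay near that median. The pentamer counts describe the sequences and say nothing about decay in these cells.

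Libraries held 20283084 to 20773407 expected counts, and a gene with 0 counts in a library can have been present at up to 0.145 to 0.147 CPM (counts scaled by library size; 3 counts, counting error only). Angptl4, the knocked-out gene, was at 4.12 to 6.96 CPM in WT against 0.83 and 1.06 CPM in the KO pair, a log2 difference of -2.56 (edgeR adjusted p = 0.00458, and 0.127 with a separate spread per group). Basal keratinocyte markers were abundant in every library, with Krt14 at 13103 to 16113 CPM, whereas the basal keratin Krt15 was at 0.10 to 0.49 CPM in WT and 2.69 and 1.45 CPM in the KO pair. KO1 and KO2 differed from each other far more than the WT libraries did (edgeR's coefficient of variation was 28.8% in KO and 5.21% in WT).

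In wild-type cells 4 ligands of the cluster were transcribed at moderate to high levels, and in KO cells each was at a small fraction of that level. Cxcl3, a neutrophil attractant close in sequence to Cxcl2, was the highest. Levels between genes are compared in TPM (transcript abundance scaled by transcript length and library). Cxcl3 (NCBI gene 330122, chromosome 5, 90786101 to 90788093) was at 891, 932 and 697 TPM in the WT libraries against 1.55 and 0.41 TPM in the KO pair. All KO values lay far below all WT values, and WT3 was the lowest of the WT libraries. In CPM the level was 416 ± 61.4 (SD, n = 3) in WT and 0.49 ± 0.42 (SD, n = 2) in KO, a log2 difference of -9.72 ± 0.45 (SE).

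Cxcl1, known as KC and a main neutrophil attractant of mouse tissues, kept the most transcript in KO cells. Cxcl1 (NCBI gene 14825, chromosome 5, 90891245 to 90893121) was at 499, 471 and 483 TPM in the WT libraries against 18.9 and 43.0 TPM in the KO pair. The WT libraries lay within a narrow range, while KO2 was above KO1. The log2 difference was -3.95 ± 0.37 (SE), a 15.4-fold lower level, and it was -4.65 without KO2 and -3.48 without KO1.

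Cxcl2, or MIP-2, was lower than both in wild-type cells. Cxcl2 (NCBI gene 20310, chromosome 5, 90903899 to 90905938) was at 89.5, 89.7 and 78.7 TPM in the WT libraries against 1.73 and 1.42 TPM in the KO pair. The libraries of each group were close together and the groups did not overlap. The log2 difference was -5.73 ± 0.15 (SE), a 53.0-fold lower level.

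Cxcl5, or LIX, a chemokine typical of epithelial and stromal cells, was at 43.9, 50.6 and 39.8 TPM in the WT libraries against 0.29 and 0.17 TPM in the KO pair (NCBI gene 20311, chromosome 5, 90759298 to 90761625). The KO values stand for 5 and 3 counts, against 675 to 857 counts in the WT libraries. The log2 difference was -7.52 ± 0.25 (SE). As a ratio of summed counts, WT was 189 times KO, with a 95% exact binomial interval of 95.8 to 439 that covers counting error only. The same interval for Cxcl3, whose KO level rests on 20 counts, was 554 to 1402 around 856.

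The platelet genes and lungkine were low or undetected. Ppbp (NCBI gene 57349, chromosome 5, 90768518 to 90770063) had 47, 27 and 36 counts in WT1, WT2 and WT3 (4.32, 2.48 and 3.30 TPM) and 0 counts in both KO libraries. The WT mean of 1.78 CPM was 12.1 times the floor of 3 counts per library, a ratio that leaves out the scatter among WT libraries. Pf4 (NCBI gene 56744, chromosome 5, 90772435 to 90773383) and Cxcl15 (NCBI gene 20309, chromosome 5, 90794534 to 90806392) each had about 1 count in WT1 and 0 in the other 4 libraries, so no difference could be detected at this depth. In CPM Ppbp was at 1.31 to 2.29 in WT.

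Cxcr2, the receptor, was at a low level that overlapped between the groups. Cxcr2 (NCBI gene 12765, chromosome 1, 74153994 to 74161246) was at 1.64, 1.91 and 2.31 TPM in the WT libraries against 2.28 and 1.5 TPM in the KO pair, from 47.3 to 72.2 counts per library. Its log2 difference was -0.04 ± 0.28 (SE), and the value turned positive without WT3 (0.11) or without KO2 (0.25). Cxcr1, the gene of a related CXC receptor, was not analysed here.

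**Figure D1:**
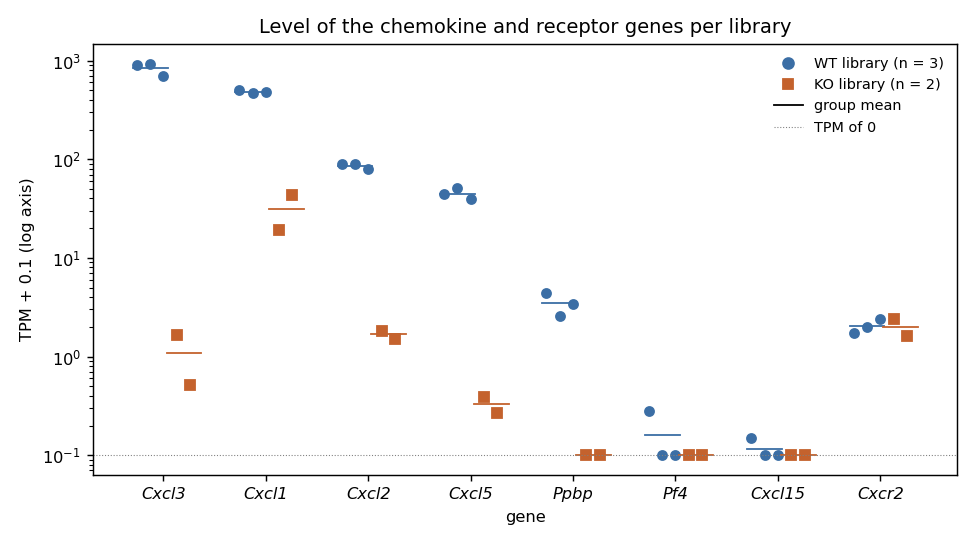
Level of each gene in every library, as TPM + 0.1 on a log axis, with WT libraries as circles, KO libraries as squares and group means as lines. Cxcl3, Cxcl1, Cxcl2, Cxcl5 and Ppbp have KO libraries below all WT libraries, Cxcr2 overlaps, and Pf4 and Cxcl15 sit at or near a TPM of 0.

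Of the 8 genes 6 passed the filter on low counts, and Cxcl3, Cxcl5 and Ppbp passed through their WT libraries alone. In the fit over all 12957 tested genes 5 of the 8 had an adjusted p under 0.05 and were lower in KO, where 20.4% of all tested genes were lower by that rule. In those 5 the groups did not overlap, with KO lower, as in 34% of tested genes. With the stricter count filter, which left Ppbp out, 4 members were lower (21.6% of all tested genes lower, 22% higher). Lower members numbered 5 with a separate spread per group (12.1% lower, 12.5% higher) and with the replicate block (6.04% lower, 6.15% higher). Since these values chose the genes, nothing is read from these counts. Ordered by log2 difference from the lowest, Cxcl3 had rank 1 among the 12957 genes, Cxcl5 rank 3, Cxcl2 rank 6 and Cxcl1 rank 22. Ppbp had rank 2, on 0 counts in KO. The median log2 difference of all tested genes was 0.02.

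The order of the genes differed between the groups. In WT the TPM ranges ran from Cxcl3 through Cxcl1, Cxcl2, Cxcl5 and Ppbp to Cxcr2, with no overlap between neighbours, and Pf4 and Cxcl15 came last, both at or near 0. In KO, Cxcl1 stood alone at the top, and Cxcr2, Cxcl2 and Cxcl3 followed with overlapping ranges. Cxcl5 lay below these, and Ppbp, Pf4 and Cxcl15 were listed at 0.

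Cxcl3 was the largest part of the cluster's transcripts in WT and Cxcl1 in KO. The summed TPM of the 7 ligands was 1528, 1546 and 1302 in WT against 22.5 and 45.0 in the KO pair. Cxcl3 made up 58.3, 60.3 and 53.5% of it in WT and 6.90 and 0.91% in the KO pair. Cxcl1 made up 32.7, 30.5 and 37.1% in WT and 84.1 and 95.6% in the KO pair. Cxcl2 held 5.80 to 6.04% in WT and 7.70 and 3.15% in the KO pair. Placed among all genes of a library by TPM, Cxcl3 ranked 164 to 206 in WT and 11221 and 12621 in KO1 and KO2. Cxcl1 ranked 294 to 315 in WT and 6063 and 3398 in KO1 and KO2.

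**Figure D2:**
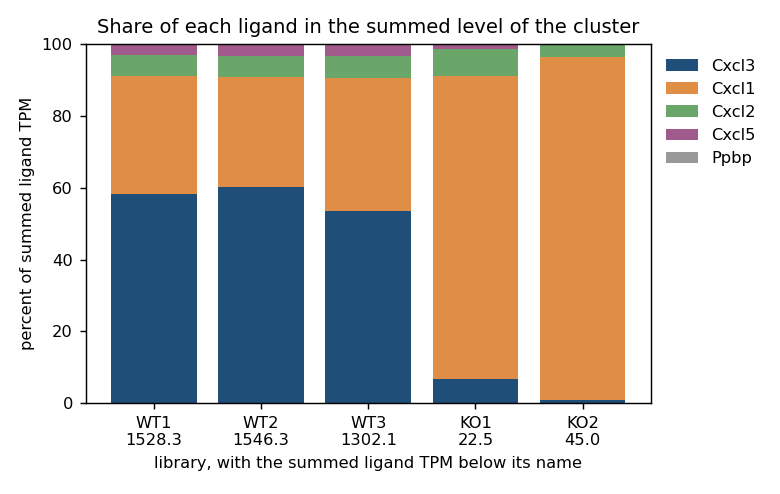
Share of each ligand in the summed TPM of the cluster, as stacked bars from 0 to 100% per library, with the summed TPM under each library name. Cxcl3 is the largest part in the 3 WT libraries and Cxcl1 in both KO libraries.

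The KO libraries differed from each other in a way that was not the same for every ligand. Cxcl1 was higher in KO2 than in KO1 (20.2 against 8.90 CPM). Cxcl3 was lower in KO2 (0.19 against 0.78 CPM, from 4.22 and 15.9 expected counts). Its log2 difference was -11.04 without KO1 and -9.03 without KO2. Cxcl2 (0.77 against 0.93 CPM) and Cxcl5 (0.14 against 0.24 CPM) were also slightly lower in KO2, on counts of 3 to 19 per library. In a sample of cultured cells, fewer producing cells and less RNA per cell cannot be told apart.

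Reads can be shared between close copies. Of the 50-base windows of the Cxcl3 transcript 6.31% also occur in Cxcl2, and 5.75% of those of Cxcl2 occur in Cxcl3, while the Cxcl1, Ppbp, Pf4 and Cxcr2 transcripts share none with another GENCODE gene. The counts of Cxcl2, Cxcl3 and Cxcr2 were not whole numbers in any library, and those of Cxcl1, Cxcl5 and Ppbp were whole, so fractional counts did not follow the shared windows gene by gene. RSEM, the authors' counting tool, divides reads that match several genes among them. How much such division moved the few KO counts of Cxcl2 and Cxcl3 was not tested. For Cxcl5 3.08% of windows recur, spread over several unrelated genes.

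Genes beside the cluster were examined to see where along chromosome 5 the lower levels ended. Every gene reaching within 500 kb of the cluster was taken. Of the 7 tested ones 2 fell, 0 rose and 5 did not pass, where 20.4% of all tested genes fell and 20.4% rose. Rassf6, a Ras-association domain gene on the Cxcl5 side, was at 8.67, 10.5 and 7.86 CPM in the WT libraries against 1.37 and 1.59 CPM in the KO pair. Neither KO library reached the WT range, and the gene fell by 2.60 on the log2 scale (SE 0.22, edgeR adjusted p = 0.00232; over its alternatives 1.4e-16 to 0.0351). Farther out, Ankrd17, a broadly expressed ankyrin repeat gene, was at 209 to 219 CPM in WT and 204 and 193 CPM in the KO pair and did not pass (adjusted p = 0.26; range 0.0321 to 0.656).

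On the Cxcl2 side, Mthfd2l, a mitochondrial folate enzyme gene, fell by 0.57 on the log2 scale (SE 0.17, adjusted p = 0.0477). The call did not hold when WT1, WT2 or WT3 was left out (adjusted p = 0.155, 0.10 and 0.153) nor in several other fits, among them a separate spread per group (adjusted p = 0.208; 0.00435 to 0.225 over all alternatives). The next genes encode EGF receptor ligands, and they differed between the KO libraries. Epgn (epigen) was at 194 to 217 CPM in WT against 108 and 398 CPM in the KO pair. Areg (amphiregulin) was at 12.6 to 16.9 CPM in WT and 2.5 and 23.6 CPM in the KO pair. Ereg (epiregulin) was at 31.9 to 35.5 CPM in WT against 6.95 and 25.0 CPM. For Epgn and Areg KO1 lay below and KO2 above all WT libraries, and Btc (betacellulin) overlapped between the groups. None of these 4 passed (adjusted p = 0.681, 0.867, 0.149 and 0.477 for Epgn, Areg, Ereg and Btc; over their alternatives 2.46e-05 to 0.995, 7.2e-05 to 0.956, 8.02e-06 to 0.286 and 0.202 to 0.816). The liver genes Afp, Afm and Albfm1 had at most 3 counts in a library.

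**Figure D3:**
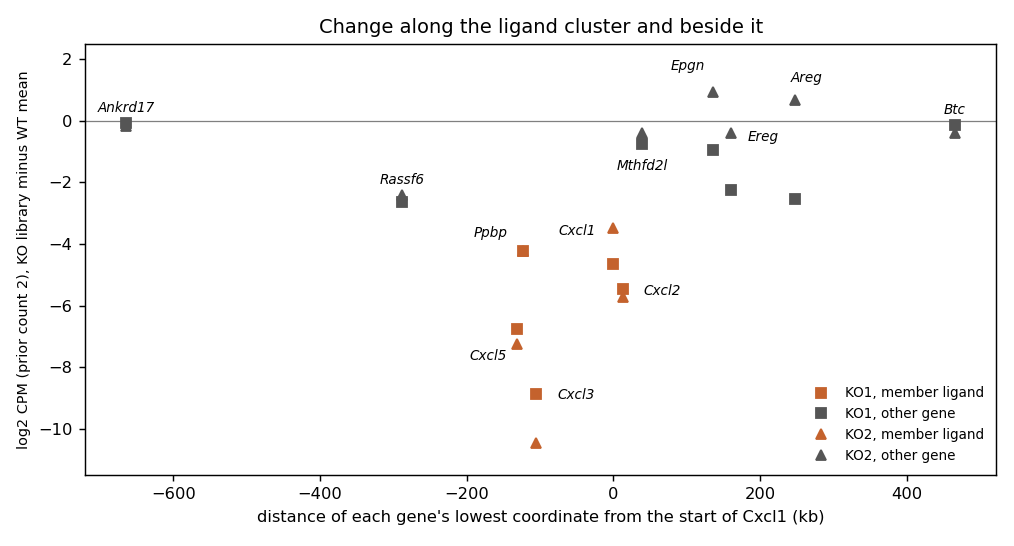
Difference of each KO library from the WT mean in log2 CPM (prior count 2) for the tested genes of the cluster and within 500 kb of it, by distance in kb of the gene's lowest coordinate from the start of Cxcl1. Member ligands lie below the other genes in both KO libraries, Rassf6 is lower in both, and Epgn and Areg lie on opposite sides of 0; the 2 Ppbp points coincide because both KO libraries had 0 counts.

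The remaining genes come from lists of the pathway, whose counts are to be read against all tested genes, of which 20.4% rose and 20.4% fell. The list of ligands and receptors of the inducing cytokines also held antagonists and a decoy receptor. Of its 16 tested genes 4 fell, 5 rose and 7 did not pass (median log2 difference -0.08). Il1a, the interleukin 1 that keratinocytes store and release on injury, was at 201, 203 and 189 CPM in the WT libraries against 22.8 and 34.6 CPM in the KO pair. It fell by 2.78 on the log2 scale (SE 0.20, adjusted p = 0.00185). Il1f6, which encodes interleukin 36 alpha, fell by 3.16 from a low level (2.47 to 2.77 CPM in WT, 0.20 and 0.39 CPM in the KO pair; adjusted p = 0.00368). Both calls held in every alternative fit that tested the gene (highest adjusted p 0.0251 and 0.0347). Il1b had at most 5 counts in a library and was not tested.

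On the receptor side, Il1rap, the shared coreceptor of the interleukin 1 family, fell by 0.70 (adjusted p = 0.00566), and Il1r2, a decoy receptor, by 3.14 (adjusted p = 0.0059). The Il1r2 call did not hold with a separate spread for each group (adjusted p = 0.0896; over its alternatives 3.77e-06 to 0.0896). The 5 that rose were receptor genes, the signalling receptors Il1r1, Tnfrsf1a, Tnfrsf1b, Il17rc and Il17re, named after their values were seen, with log2 differences of 0.37 to 1.33. All 5 calls were lost without WT1 and with the replicate block. Except that of Il17rc, they were also lost with a separate spread per group (highest adjusted p over the alternatives of each gene 0.0958 to 0.132). Without WT2 the call of Il1r1 was lost too, without WT3 those of Tnfrsf1a, Tnfrsf1b and Il17re, and without KO2 that of Tnfrsf1b. Without WT1, WT2, WT3, KO1 and KO2 in turn, 0, 4, 2, 5 and 4 genes of this list rose and 4, 4, 4, 6 and 8 fell. Over all tested genes, 7.62, 8.81, 8.68, 29.3 and 30% rose and 7.6, 8.94, 8.77, 30.5 and 30.9% fell in those fits. Tnf, also named after its values were seen, was at 48.9 to 61.9 CPM in WT and 44.3 and 13.0 CPM in the KO pair and did not pass (adjusted p = 0.163).

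Between the receptors and the promoters, 4 of 24 adaptors, kinases and transcription factors fell, 3 rose and 17 did not pass (median log2 difference 0.11). Nfkbiz, the NF-kappaB cofactor that many of these chemokine genes need, was at 338, 368 and 304 CPM in the WT libraries against 135 and 203 CPM in the KO pair. It fell by 1.0 on the log2 scale (SE 0.20, adjusted p = 0.0145), a call lost without WT1 or WT2 (adjusted p = 0.063 and 0.061; over its alternatives 2.74e-05 to 0.063). Chuk, the I-kappaB kinase alpha gene, fell by 0.52, Map3k7, the TAK1 kinase gene, fell by 0.28, and Ikbkb, the kinase beta gene, rose by 0.28 (adjusted p = 0.00952, 0.0271 and 0.0225). All 3 calls were lost with a separate spread per group and without WT1 or WT2, and those of Map3k7 and Ikbkb also without WT3 (highest adjusted p over their alternatives 0.0725, 0.221 and 0.187, lowest 0.000133, 0.00574 and 0.00549). Without each library in turn, in the order above, 0, 0, 0, 8 and 8 genes rose and 0, 0, 2, 9 and 7 fell. Rela, the main NF-kappaB subunit gene, was named after its values were seen. It was at 135 to 146 CPM in WT and 155 and 142 CPM in the KO pair. Fosl1, an AP-1 subunit gene also named after its values were seen, had the lowest log2 difference of the list (-2.44, SE 0.80). It was at 147, 153 and 160 CPM in WT against 6.41 and 49.9 CPM in the KO pair. Fosl1 did not pass (edgeR adjusted p = 0.0591).

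Of 10 inhibitors of the pathway 2 fell, 1 rose and 7 did not pass (median log2 difference -0.12). Nfkbia, whose product I-kappaB-alpha holds NF-kappaB in the cytoplasm and whose gene is itself an NF-kappaB target, was at 366, 351 and 327 CPM in the WT libraries against 255 and 236 CPM in the KO pair. It fell by 0.50 (SE 0.09, adjusted p = 0.0113), a call lost without WT1 or WT2 (adjusted p = 0.0652 and 0.0608; over its alternatives 2.99e-05 to 0.0925). Tnfaip3, the A20 deubiquitinase gene, was at 142 to 192 CPM in WT against 112 and 48.9 CPM in the KO pair and did not pass (adjusted p = 0.066; range 7.27e-05 to 0.177). Tollip fell by 0.24 and the deubiquitinase gene Cyld rose by 0.36 (adjusted p = 0.0471 and 0.0243). Both calls were lost with a separate spread per group and when any WT library was left out (ranges 0.00488 to 0.253 and 0.000717 to 0.182). Without each library in turn, 0, 0, 0, 1 and 3 inhibitors rose and 0, 0, 1, 4 and 4 fell.

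Proteins that bind AU-rich or related elements in chemokine transcripts formed a list of 9, of which 4 fell, 0 rose and 5 did not pass (median log2 difference -0.30). Srsf1 and Hnrnpd, an RNA-splicing factor and the AUF1 gene, fell by 0.83 and 0.71 (adjusted p = 0.00238 and 0.00264). Elavl1, the stabilising protein HuR, fell by 0.34 and Rc3h1, the decay factor Roquin, by 0.30 (adjusted p = 0.0243 and 0.0328). These last calls were lost with a separate spread per group and when any WT library was left out (ranges 0.000972 to 0.166 and 0.00164 to 0.216). Without each library in turn 2, 2, 3, 5 and 6 of the list fell and 0, 0, 0, 0 and 1 rose. Zfp36, the tristetraprolin gene and the best known decay factor of such transcripts, named after its values were seen, was at 418, 396 and 226 CPM in the WT libraries against 222 and 225 CPM in the KO pair. It did not pass (adjusted p = 0.121).

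Other CXC chemokines formed a list of which 4 genes were tested, and of these 2 rose, 0 fell and 2 did not pass. Cxcl12, a stromal chemokine that acts through CXCR4, was at 2.68, 2.56 and 1.79 CPM in the WT libraries against 28.8 and 31.4 CPM in the KO pair. It rose by 3.68 on the log2 scale (SE 0.18, adjusted p = 0.000848). Cxcl14, a chemokine made constitutively by keratinocytes, rose by 0.66 (adjusted p = 0.00376). Cxcl16, the highest of the 4 in CPM, was at 317 to 323 CPM in WT and 317 and 252 CPM in the KO pair, and Cxcl10, an interferon-induced chemokine, was at 0.24 to 0.83 CPM in all libraries. Neither passed (adjusted p = 0.278 and 0.759; over their alternatives 0.000704 to 0.924 and 0.136 to 0.996). Ackr3, the scavenging receptor for CXCL12 and the single tested gene among other CXC receptors, fell by 2.82 (46.4 to 56.5 CPM in WT, 10.8 and 4.25 CPM in the KO pair; adjusted p = 0.00606). Cxcr4, Cxcr5 and Cxcr6 were at 0 to 0.15 CPM.

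Of 9 tested products of keratinocytes that also attract, feed or restrain neutrophils, 5 fell, 1 rose and 3 did not pass (median log2 difference -0.86). Csf2, which encodes GM-CSF, was at 8.18, 9.96 and 5.29 CPM in the WT libraries against 0.78 and 0.29 CPM in the KO pair. It fell by 3.85 (SE 0.51, adjusted p = 0.00498). S100a8, a subunit of calprotectin, fell by 2.26 (15.2 to 29.8 CPM in WT, 4.35 and 5.02 CPM in the KO pair; adjusted p = 0.00611). With a separate spread for each group neither call held (adjusted p = 0.153 and 0.185, the highest over their alternatives, with lowest values of 1.14e-11 and 7.78e-10). Anxa1, the annexin that limits neutrophil entry, fell by 0.79 (adjusted p = 0.00421). Csf3, the granulocyte growth factor G-CSF, and S100a9, both named after their values were seen, fell by 2.30 and 2.05 (adjusted p = 0.0262 and 0.0138). The Csf3 call was lost when WT1, WT2 or WT3 was left out (over its alternatives 6.65e-06 to 0.0876), and the S100a9 call without WT1 and with a separate spread per group (1.67e-06 to 0.234). Lcn2, an iron-binding protein of inflamed epithelium, rose by 3.24 (1.41 to 1.98 CPM in WT, 6.95 and 25.8 CPM in the KO pair; adjusted p = 0.0108). The call did not hold when WT1, WT2 or WT3 was left out (adjusted p = 0.0574, 0.0503 and 0.0544; range 2.38e-07 to 0.0574). Without each library in turn, 3, 4, 4, 7 and 7 of the list fell and 0, 0, 0, 1 and 2 rose.

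**Figure D4:**
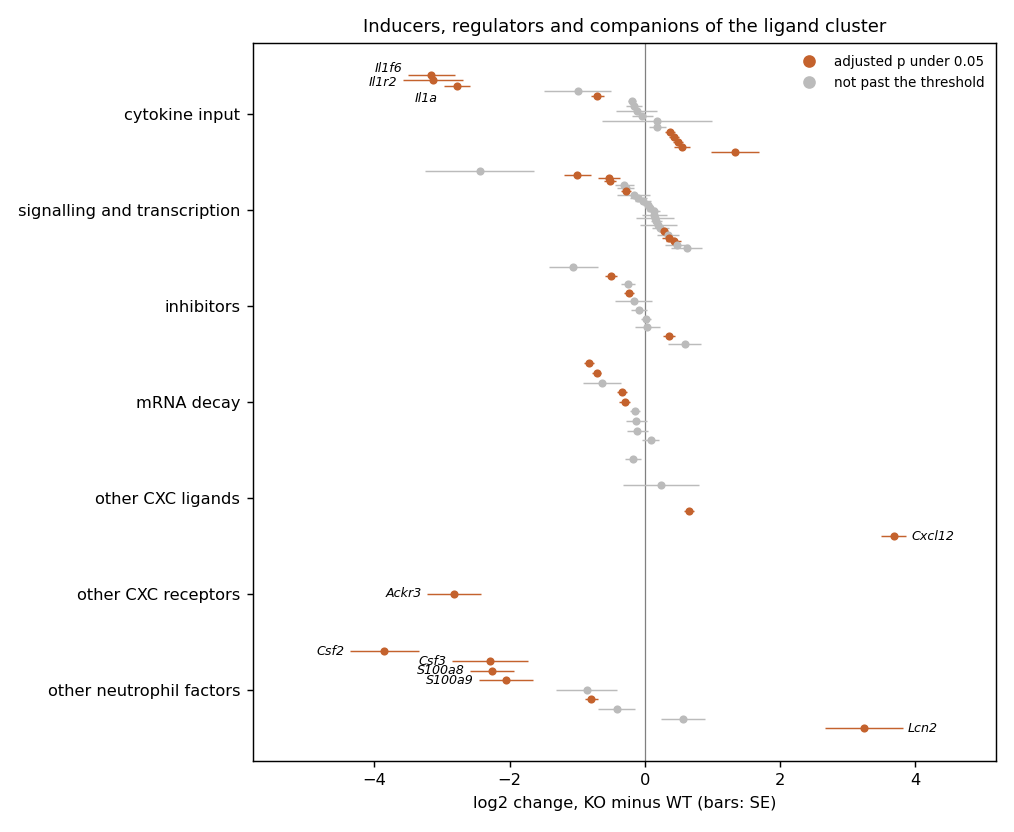
Log2 difference, KO minus WT, with SE bars, for each tested gene of the 7 pathway lists, in orange where the adjusted p is under 0.05 and grey otherwise. Il1a, Il1f6, Il1r2, Ackr3, Csf2, Csf3, S100a8 and S100a9 lie to the left and Cxcl12 and Lcn2 to the right, while most signalling genes and inhibitors lie near 0.

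Markers of other cells that can make these chemokines moved in several ways. Their counts too are to be read against all tested genes, of which 20.4% rose and 20.4% fell. Alternative fits are not given for the markers. Fibroblast markers rose for 6 of 12 tested (summed level 468 to 482 CPM in WT, 789 and 382 CPM in the KO pair), and 0 fell. Fbln2 made up most of that sum, at 383 to 403 CPM in WT against 566 and 275 CPM in the KO pair, and did not pass. The 6 that rose were higher in both KO libraries than in any WT library (edgeR adjusted p = 0.00283 to 0.034). Among them Postn was at 0.05 to 0.19 CPM in WT against 17.2 and 7.01 CPM, and Col1a1 at 0.15 to 1.60 CPM against 18.9 and 4.2 CPM. Thy1 was at 1.02 to 1.94 CPM against 15.0 and 5.80 CPM, Col6a2 at 0 to 0.19 CPM against 7.88 and 2.46 CPM, and Pdgfrb and Dcn were at 0 to 2.45 CPM over all libraries. Of 4 tested macrophage and leukocyte markers 1, Cd68, rose and 0 fell (summed level 25.6 to 34.6 CPM in WT, 46.2 and 43.4 CPM in the KO pair). Ptprc and Adgre1, which define leukocytes and macrophages, were at 0 to 0.15 CPM. In the KO pair Cd68 was at 40.8 and 34.9 CPM, Lyz2 at 0 and 0.14 CPM and Cd74 at 4.26 and 7.83 CPM. In the WT libraries Lyz2 was at 1.12, 1.35 and 0.10 CPM, Cd74 at 4.92, 3.92 and 0.10 CPM and Cd68 at 25.3, 28.7 and 25.3 CPM. The fibroblast markers Col1a1 and Col1a2 were lowest in WT3 as well (0.15 and 0 CPM). Of the ligands, Cxcl3, Cxcl2 and Cxcl5 were lowest in WT3, and Cxcl1 and Ppbp in WT2. Whether these values are linked was not tested. Of 4 tested neutrophil markers 2 fell and 0 rose (40.5 to 83.4 CPM in WT, 13.0 and 18.2 CPM in the KO pair), and both are S100 genes that keratinocytes also express. The other 2 tested, Csf3r and Itgam, were at 0.48 to 1.12 and 0.34 to 0.77 CPM over all libraries. Ltf was at 0.15 to 0.39 CPM, and Ly6g, Mpo, Ngp, Camp, Fpr1, Fpr2 and Mmp8 were at 0 to 0.20 CPM. Of 3 tested platelet markers 1 rose and 0 fell (5.39 to 7.11 CPM in WT, 7.29 and 11.6 CPM in the KO pair). Itga2b, which rose, was at 1.69 to 2.19 CPM in WT against 3.87 and 4.35 CPM, Gp1ba at 1.65 to 2.71 and Gp1bb at 0.98 to 4.30 CPM over all libraries, and Gp6 and Itgb3 at 0 to 0.29 CPM. Of 2 endothelial markers 1 fell (5.03 to 5.50 CPM in WT, 2.98 and 3.87 CPM in the KO pair), and of 4 melanocyte markers 0 passed (3.20 to 4.29 CPM in WT, 3.67 and 7.01 CPM in the KO pair). Of 10 basal keratinocyte markers 3 rose, 2 fell and 5 did not pass (41813 to 42619 CPM in WT, 55272 and 42671 CPM in the KO pair). The part of these cells in the chemokine values was not tested.

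Profiles over the 5 libraries most like those of the 4 main ligands were sought among 11289 other genes, by Euclidean distance between their log2 CPM values centred on the WT mean. Nearest to Cxcl1 were Hmga2, a chromatin protein gene (distance 0.42), and Prl8a9, a gene of the prolactin family (0.42). Hmga2 was at 75.2 to 88.7 CPM in WT against 2.35 and 7.05 CPM in the KO pair, so that KO2 exceeded KO1 as in Cxcl1. Prl8a9 was at 233 to 334 CPM in WT and 12.3 and 29.3 CPM in the KO pair. Nearest to Cxcl2 were Zfp972, a zinc finger gene (0.41), and Igf2bp3, an RNA-binding protein gene (1.08). For Cxcl5 and Cxcl3 the same pair came nearest, at 1.97 and 3.06 for Cxcl5 and at 5.82 and 6.91 for Cxcl3. The Cxcl3 distances are far larger than those for Cxcl1, so its nearest profiles are not close ones. Zfp972 was at 405 to 430 CPM in WT and 7.24 and 8.89 CPM in the KO pair. In it KO2 exceeded KO1, unlike in Cxcl2, Cxcl3 and Cxcl5. Reads of Zfp972 may be shared with other zinc finger genes.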

How the data were processed

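Epidermal stem cell RNA was compared in 3 WT and 2 KO libraries. The deposited table lists 17657 genes. Its expected counts, not scaled between libraries, were estimated with RSEM 1.3.1 on GRCm38.p6, per the submitters' processing notes. Its deposited TPM values are scaled by transcript length within each library, per the file headers. For the aligner and the strand setting the sources used here give nothing.

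Rounded counts were fitted in R 4.3.3 with edgeR 4.0.16 (filterByExpr, TMM factors 0.988 to 1.02, quasi-likelihood test of KO against WT, no covariate, two-sided, Benjamini-Hochberg over 12957 genes, threshold 0.05) after the code was tested on simulated data. SEs come from the test statistic. At these depths 1 CPM stands for 20.4 to 20.7 counts, so precision below 1 CPM is low. No pair of replicates agreed within sampling noise (chi-square per degree of freedom 3.45 to 6.45 in WT, 107 in KO).

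Genes and lists were chosen with earlier results of these data known. Named are all members, Angptl4, up to 4 genes per pathway list by smallest p, Il1a, Il1b, Nfkbiz, Nfkbia, genes within 500 kb and the 2 nearest profiles per main ligand (prior count 2, mean log2 CPM of at least 1); others are marked, and the marker genes named were picked after their values were seen. Il36a, Il36b, Il36g and Il36rn were matched under the older symbols Il1f6, Il1f8, Il1f9 and Il1f5. Alternatives were DESeq2 size factors, total counts, DESeq2 1.42.0, limma-voom 3.58.1 with 1 or 2 spreads, no filter, a stricter filter (group mean 10, overall mean 50), a block for the replicate number, leaving out each library, limma on log2(TPM + 1) or log2(TPM + 0.1) for genes with a mean TPM of at least 1, and log2(TPM + 1) without that filter. With 1 KO library left, it was assumed to vary like WT. The level of 1 platelet marker is not reported here.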

Additional observations from a re-analysis of the deposited data

How the results depend on the processing

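Cxcl1, Cxcl2, Cxcl3 and Cxcl5 were lower in KO in each of the fits run. In the fits with both KO libraries 4 or 5 members were lower past the threshold (4 under the stricter filter, which left Ppbp out). Of all tested genes 20.4% were lower in the main fit, 21.6% under the stricter filter and 6.04% with the replicate block. The members were chosen on these values, so nothing is read from the counts. Genes called over the whole table, 5286 in all, numbered 3192 with a separate spread per group, 1580 with the replicate number as a block, and 1957 to 8068 with 1 library left out. Genes called in the pathway lists (32) numbered 15, 14 and 12 to 53 under the same 3 settings. Genes beside the cluster (2) numbered 1 with total counts, a separate spread, no count filter, the stricter filter, the replicate block and log2(TPM + 1) without a filter, and 1 to 6 with 1 library left out. In the order given in Results, the pathway lists held 16, 24, 10, 9, 4, 1 and 9 tested genes. Over all 12957 tested genes 20.4% rose and 20.4% fell in the main fit. These shares were 12.5 and 12.1% with a separate spread and 6.15 and 6.04% with the block. Called genes numbered 5212 over the whole table with total counts, 4883 with no count filter and 4910 with log2(TPM + 1) without a filter. Whether the lists or the genes beside the cluster exceeded such shares was not tested. With 1 library left out, Epgn ran from -0.93 (without KO2) to 0.92 and Areg from -2.56 to 0.66 (without KO1), both changing direction. Il1rap, Cxcl14 and Anxa1 were called except under the block (adjusted p = 0.0548, 0.0501 and 0.0817). The block also took the calls of Il1r1, Tnfrsf1a, Tnfrsf1b, Il17rc, Il17re, Chuk, Map3k7 and Ikbkb. Those of Nfkbia, Cyld, Tollip, Elavl1, Rc3h1, Csf3 and Mthfd2l were lost under it as well. Fitted differences of Ppbp, with 0 KO counts, ran from -8.38 (without WT2) to -2.11 (log2(TPM + 1)), and on log2(TPM + 1) Cxcl5 differed by -5.21 and Cxcl2 by -5.08. Libraries with the same number did not deviate together (correlation 0.007 and 0.068 over genes). This cannot exclude pairing, because KO1 and KO2 deviate from their mean by equal and opposite amounts and differ widely. The labels give no batch, and the numbers were not taken as pairs in the main fit. KO levels of Cxcl2, Cxcl3 and Cxcl5 rest on 35, 20 and 8 counts.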
